A study of Mus musculus with 2 samples.

Results

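The Hox genes, which encode the homeobox transcription factors of the 4 Hox clusters, were examined in cells sorted for Flk1 and Tie2, with and without a pulse of the mesoderm factor Mesp1. Members were all probe sets whose single gene symbol on the array was Hox, a cluster letter from a to d and a paralogue number. They came to 48 probe sets for 33 genes, out of 18193 genes with a named probe set, whereas RefSeq lists 39 mouse Hox genes. Of the 6 others, Hoxb8 and Hoxd4 were represented only in 3 probe sets that carry a second Hox symbol, and the rest were not analysed here. The dox sample came from A2lox.Mesp1 mouse embryonic stem cells, a 129/Ola line with a Mesp1 transgene that responds to doxycycline (dox). They were exposed to 250 ng/mL of dox, which the labels place between day 2 and day 4 of growth as embryoid bodies. The no dox sample came from the same line, carrying the same transgene, grown the same way without the drug. In both, cells bearing Flk1 and Tie2 on their surface were sorted on day 5, and 1 array was hybridised per condition. No sample of a line without the transgene was exposed to dox, so the drug and Mesp1 cannot be told apart as the source of a difference.

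Hox proteins give cells their position along the head-to-tail axis. The genes lie side by side in each cluster in the order of their paralogue numbers, and in the embryo the low-numbered genes are switched on earlier and reach further towards the head than the high-numbered ones. Hox proteins bind DNA together with the TALE cofactors (Pbx, Meis and Pknox). Retinoic acid is known to raise low-numbered Hox genes and caudal (Cdx) factors to raise middle and high-numbered ones. In blood, members such as Hoxa9 and Hoxb4 act in stem and progenitor cells, and in mouse embryonic endothelium Hoxa3 is known to restrain the blood-forming programme.

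The arrays gave 1 linear signal per probe set in arbitrary units, and the depth of measurement is limited by their number. The median signal was 127 with dox and 112 without dox, and the lowest value, exactly 1 on both arrays, was a floor. Differences are dox minus no dox on the log2(signal + 16) scale, and folds are 2 to the power of that difference. A gene stands by its brightest probe set, and it passed the signal filter when it reached the median of at least 1 array. Between probe sets of the same gene past the filter, log2 differences had a pooled SD of 0.38 over all genes and 1.12 over the Hox genes with several such probe sets. This disagreement is the only error that can be measured here, and Hoxb6, Hoxc6 and Hoxd10 below differ by about the larger of these SDs. There is no replicate check and no p-value. Mesp1 had a signal of 10977 with dox and 2433 without dox, Kdr (which encodes Flk1) 10733 with dox and 10140 without dox, and Tek (Tie2) 9277 with dox and 8799 without dox. A difference in bulk sorted cells cannot separate fewer cells that express a gene from less RNA per cell.

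Hox genes differed in both directions, mostly upwards in low-numbered and downwards in high-numbered groups. Among the 17 members that passed, 5 had at least 2-fold more signal with dox (Hoxa2, Hoxa3, Hoxa5, Hoxb1 and Hoxc6, the last of which turned lower under other scalings), against 5.69% of all genes past the filter. A further 3 had at least 2-fold less (Hoxa9, Hoxb6 and Hoxd10), against 2.06% of all genes, and 9 lay within 2-fold. These counts are 29.4% and 17.6% of the 17. They take the brightest probe set of each gene. Another probe set past the filter was at -0.06 for Hoxa5 and at -0.02 for Hoxa9, and those of Hoxa3 below it lay between 0.09 and 0.45. Hoxa2 and Hoxa3 reached the median on the dox array alone, where they were high, so they had to differ to be counted. Over all 33 measured members, with no filter, 6 were 2-fold or more higher and 4 lower, against 4.77% and 2.04% of all genes. The median log2 difference of the 17 was 0.12, close to the 0.05 of all genes past the filter. It lay below 0 under 8 of 11 alternatives, down to -0.33 after median scaling. That scaling also lowered the median of all genes, to -0.13.

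**Figure D1:**
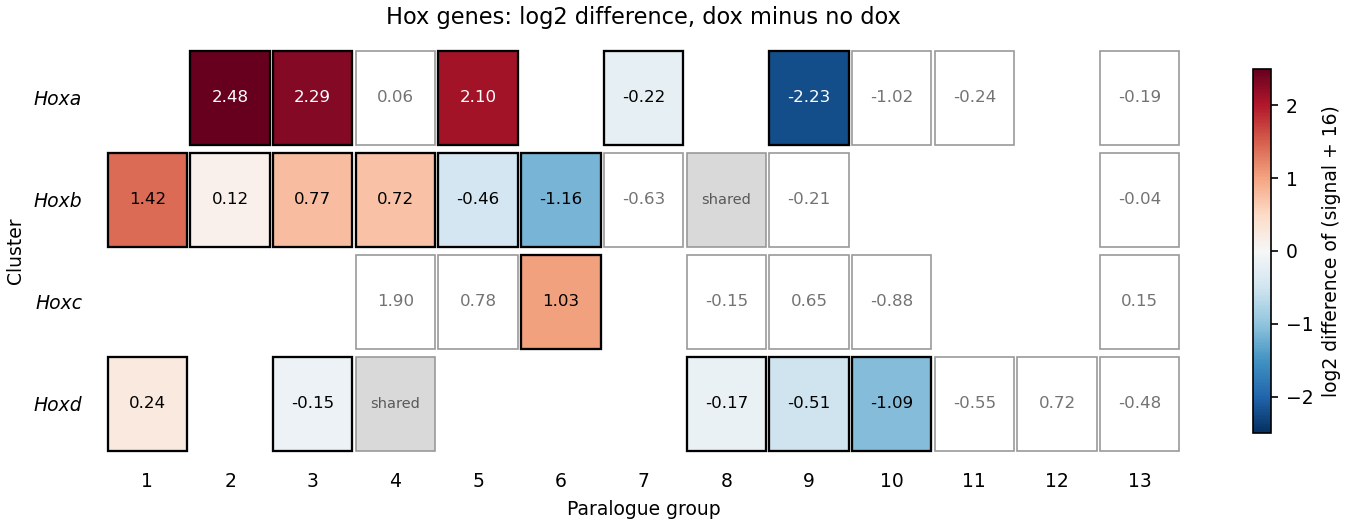
Log2 difference (dox minus no dox) of each Hox gene by cluster (rows) and paralogue group (columns), by the brightest probe set. Coloured cells passed the signal filter, white cells did not, and grey cells (shared) had only probe sets that carry a second Hox symbol; red cells lie mostly in groups 1 to 6 and blue cells mostly from group 5 upwards.

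In paralogue groups 1 to 4, 7 of 8 members past the filter were higher with dox by any amount, with a median log2 difference of 0.75. Hoxa2 and Hoxa3 among them passed through the dox array alone, so they could only be higher. With a filter on both arrays, 5 of 6 were higher, with a median of 0.48. One of the 7, Hoxb3, had another probe set of the opposite sign, and without it the count was 6. In groups 5 to 8 it was 2 of 6, with a median of -0.20. Both of these, Hoxa5 and Hoxc6, had another probe set of the opposite sign, and the count was 1 after median scaling and 0 with the dimmest probe set of each gene. In groups 9 to 13 it was none of 3, with a median of -1.09. All genes past the filter were higher in 55.6% of cases. Counting every measured member without the filter, 9 of 10 were higher in groups 1 to 4, 3 of 9 in groups 5 to 8 and 3 of 14 in groups 9 to 13, against 54.9% of all genes. Across the 17 members Spearman's rho between log2 difference and paralogue number was -0.688, and across the 33 it was -0.541. Across the 15 that passed on both arrays it was -0.667. These are descriptions across genes that share the same 2 arrays and lie next to each other, and genes are not replicates.

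Upstream sequences are shown for members at both ends of the pattern and for Hoxb8, whose shared probe set had the lowest difference among Hox probe sets. Each line gives the 250 bases before a RefSeq transcript start (assembly GRCm38.p6, from C57BL/6J and not from 129/Ola), 5′ to 3′ on the strand of the gene. Capitals mark E-boxes (CANNTG, the type of site that bHLH factors such as Mesp1 bind), caudal-type TTTATG and TATA boxes (TATAAA), on either strand. The windows of Hoxd10 and Hoxb8 lie within the span of a longer annotated form of the same gene, and that of Hoxa9 overlaps the annotated Gm52902.
Hoxa2, chr6:52164832-52165081, minus strand: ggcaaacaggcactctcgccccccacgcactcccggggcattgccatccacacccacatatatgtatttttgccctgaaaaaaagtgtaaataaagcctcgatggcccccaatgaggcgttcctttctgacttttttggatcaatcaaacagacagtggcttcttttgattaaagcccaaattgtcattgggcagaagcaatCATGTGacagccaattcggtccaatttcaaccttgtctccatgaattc
Hoxb1, chr11:96365508-96365757, plus strand: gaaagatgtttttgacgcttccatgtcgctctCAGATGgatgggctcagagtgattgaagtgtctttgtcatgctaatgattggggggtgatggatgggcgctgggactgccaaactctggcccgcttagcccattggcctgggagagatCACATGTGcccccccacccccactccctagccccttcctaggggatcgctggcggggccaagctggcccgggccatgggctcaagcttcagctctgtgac
Hoxa9, chr6:52227371-52227620, minus strand: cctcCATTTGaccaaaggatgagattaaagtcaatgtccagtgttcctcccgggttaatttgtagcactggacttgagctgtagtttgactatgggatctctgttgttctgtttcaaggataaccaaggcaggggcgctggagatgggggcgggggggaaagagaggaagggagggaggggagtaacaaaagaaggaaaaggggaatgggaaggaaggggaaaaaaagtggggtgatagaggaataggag
Hoxd10, chr2:74691641-74691890, plus strand: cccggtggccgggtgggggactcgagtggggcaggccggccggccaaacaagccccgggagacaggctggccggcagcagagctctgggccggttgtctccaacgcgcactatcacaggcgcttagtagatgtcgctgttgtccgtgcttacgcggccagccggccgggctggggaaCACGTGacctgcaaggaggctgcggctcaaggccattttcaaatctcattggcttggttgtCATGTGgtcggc
Hoxb8, chr11:96281655-96281904, plus strand: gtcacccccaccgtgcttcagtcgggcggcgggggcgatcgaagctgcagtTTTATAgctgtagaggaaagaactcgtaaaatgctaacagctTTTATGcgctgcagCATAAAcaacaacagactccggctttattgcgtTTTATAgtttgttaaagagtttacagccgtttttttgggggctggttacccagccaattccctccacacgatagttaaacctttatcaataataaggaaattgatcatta

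E-boxes stood in the upstream bases of genes of both directions: 1 match for Hoxa2 and 3 for Hoxb1, of which a pair overlaps, 1 for Hoxa9 and 2 for Hoxd10. Over the 300-base windows of RefSeq (250 bases before and 50 after the start), 17 of 24 Hox windows held an E-box (70.8%), close to the 72.3% of all 32851 windows. TTTATG was present in 5 of 24 Hox windows (20.8%) against 11.9% of all windows, and those 5 belonged to Hoxa7, Hoxb8, Hoxd3, Hoxd4 and Hoxd11. The upstream bases of Hoxb8 held 2 TTTATG and 2 TATAAA matches, and none of the other 4 printed sequences held either. Those of Hoxa7 also held 2 TTTATG matches and those of Hoxd3 held 1. These genes were within 2-fold, at log2 differences of -0.22 and -0.15. A link between TTTATG and the direction of a difference was not tested. Another caudal-type word, TTTAC, was in 8 Hox windows (33.3%) against 31.5% of all windows, and TATAAA in 4 (16.7%) against 13.6%. Direct repeats of AGGTCA, the half-site of retinoic acid receptors, spaced by 5 or by 2 bases were found in no Hox window and in 3 of all windows each. A match of letters is not a binding site, and 17 of the 39 Hox genes had no window in the table.

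Among the low-numbered genes the Hoxa members differed most. Hoxa2, which patterns the hindbrain and the second pharyngeal arch, had a signal of 221 with dox and 26.4 without dox, 5.60-fold higher. Its signal without dox lay below the median of that array, so the size depends on the pseudocount, and the log2 difference of 2.48 ran from 1.66 to 3.02 over the alternatives. Hoxa3, needed for the thymus and parathyroid, had a signal of 525 with dox and 94.4 without dox, 4.90-fold higher by its brightest probe set. That probe set is of the type that can detect related sequences. The other 3 Hoxa3 probe sets, which are not of that type, stayed below the filter and gave log2 differences between 0.09 and 0.45. Hoxa4 was below the filter, with a signal of 25.4 with dox and 23.9 without dox, and its other probe set was at the floor of 1 with dox and at 18.5 without dox.

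The low-numbered Hoxb members differed less. Hoxb1, which marks the fourth hindbrain segment and is also present in progenitors of the second heart field, had a signal of 338 with dox and 117 without dox, 2.67-fold higher. Hoxb2 had a signal of 3556 with dox and 3269 without dox, a log2 difference of 0.12 that turned to -0.06 after scaling the arrays to a common median. That scaling moved the median of all genes by -0.18, so Hoxb2 lay near the middle of all genes under both. Hoxb4, used to expand blood stem cells from embryonic stem cells, had a signal of 731 with dox and 436 without dox, 1.65-fold higher. Its other probe set had 285 with dox and 128 without dox (log2 difference 1.06), so both Hoxb4 probe sets were higher and 1 exceeded 2-fold.

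The probe sets of Hoxb3 pointed in opposite directions. The brightest had a signal of 2356 with dox and 1378 without dox, 1.70-fold higher, and the other had 322 with dox and 742 without dox, a log2 difference of -1.16. No direction is therefore given for Hoxb3 as a gene. In the Hoxd cluster, Hoxd1 had a signal of 3529 with dox and 2994 without dox (log2 difference 0.24). Hoxd3, known to promote an angiogenic state in human endothelial cells, had 293 with dox and 328 without dox (log2 difference -0.15). Both stayed well within 2-fold. Probe sets annotated to Hoxd4 and Hoxd3 together had signals of 195 with dox and 203 without dox, and of 122 with dox and 222 without dox. They were assigned to neither gene. Hoxc4 was at the floor without dox and at 47.4 with dox, below the filter on both arrays.

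Groups 5 to 8 held members of both directions, and in the Hoxb and Hoxa clusters the sign turned within or next to this stretch. Hoxa5, which acts in lung and axial skeleton, had a signal of 1551 with dox and 348 without dox by its brightest probe set, 4.30-fold higher. Its other probe set, of the type that can detect related sequences, had 420 with dox and 438 without dox, a log2 difference of -0.06. The 4.30-fold value thus rests on 1 of 2 probe sets. Hoxa7 had a signal of 259 with dox and 304 without dox (log2 difference -0.22), within 2-fold.

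Hoxb5, an activator of Flk1 in mouse angioblasts, had a signal of 1796 with dox and 2475 without dox (log2 difference -0.46). Hoxb6 had a signal of 977 with dox and 2195 without dox, 2.23-fold lower, by its only probe set. The probe set annotated to both Hoxb8 and Hoxb7 had 318 with dox and 1987 without dox, 5.99-fold lower. The probe set of Hoxb7 alone was dim on both arrays, at 2.23 with dox and 12.2 without dox. Hoxb8 holds myeloid progenitors in an undifferentiated state when forced on, and which of the pair gave the shared signal was not tested.

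Hoxc6 gave no settled direction. Its chosen probe set had a signal of 292 with dox and 136 without dox (log2 difference 1.03), and another past the filter had 193 with dox and 229 without dox (log2 difference -0.23). Their mean signals, 214 and 211, are so close that scaling to a common median or quantile normalization made the second the brightest, with log2 differences of -0.40 and -0.39. The remaining Hoxc6 probe set was at the floor on both arrays. Hoxd8 had a signal of 3700 with dox and 4169 without dox, and its other probe set 1847 with dox and 2337 without dox. Both Hoxd8 probe sets were slightly lower, at log2 differences of -0.17 and -0.34.

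In groups 9 to 13 every member past the filter was lower with dox by its brightest probe set. Hoxa9, a regulator of blood stem and progenitor cells, had a signal of 209 with dox and 1034 without dox, 4.68-fold lower, below which lay only 0.161% of genes past the filter. Its other probe set did not show this, with 238 with dox and 243 without dox (log2 difference -0.02). Hoxd9 had a signal of 2818 with dox and 4024 without dox (log2 difference -0.51), and Hoxd10, a gene of the limb and lumbar spinal cord, 443 with dox and 958 without dox, 2.12-fold lower. Within Hoxd the difference grew more negative with each gene past the filter.

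Most high-numbered members were dim on both arrays. Among 14 measured genes of groups 9 to 13, 11 did not reach the filter, namely Hoxa10, Hoxa11, Hoxa13, Hoxb9, Hoxb13, Hoxc9, Hoxc10, Hoxc13, Hoxd11, Hoxd12 and Hoxd13. Hoxa10, next to Hoxa9 and active in the same progenitors, had a signal of 42.2 with dox and 102 without dox (log2 difference -1.02), and its other probe set 32.4 with dox and 22.04 without dox (0.35). Hoxb13 came nearest to the filter, with 104 with dox and 107 without dox. The 16 members below the filter, which also include Hoxa4, Hoxb7, Hoxc4, Hoxc5 and Hoxc8, had signals from 1 to 107 by their brightest probe sets and log2 differences from -1.02 to 1.90. At such signals a missing difference is not evidence of equal expression, and the table holds no detection calls that would tell a dim value from none.

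**Figure D2:**
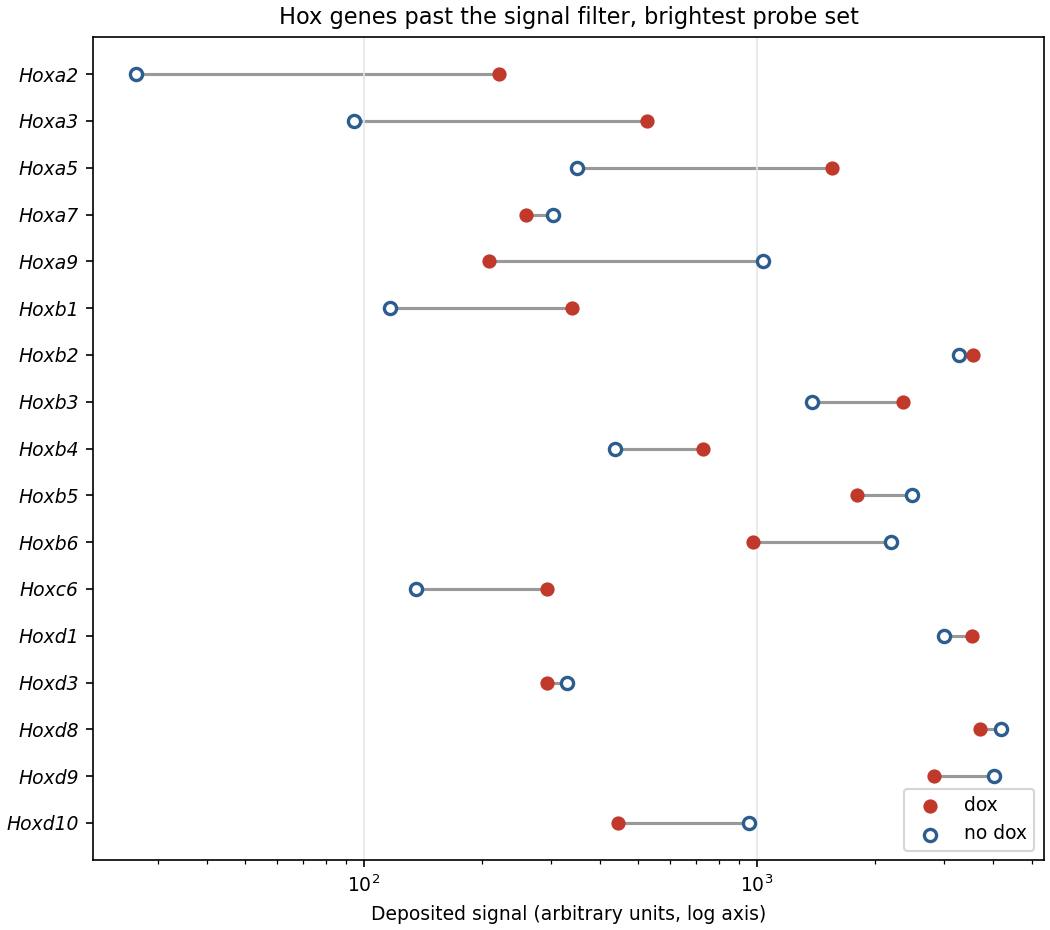
Deposited signal (arbitrary units, log axis) with dox (filled) and without dox (open) for the 17 Hox genes past the signal filter, 1 brightest probe set and 1 array per condition. Filled points lie to the right for Hoxa2, Hoxa3, Hoxa5 and Hoxb1 and to the left for Hoxa9, Hoxb6 and Hoxd10; positions of different genes are not comparable, since probe sets differ in brightness.

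By cluster, Hoxa spanned the widest range and Hoxd the narrowest of those with several members past the filter. Hoxa had 5 of 9 measured members past it, with log2 differences from 2.48 to -2.23, of which 3 were 2-fold or more higher and 1 lower, against 5.69% and 2.06% of all genes past the filter. Of those 3, Hoxa2 and Hoxa3 passed through the dox array alone. Hoxb had 6 of 9, from 1.42 to -1.16, with 1 higher and 1 lower. Hoxd had 5 of 8, from 0.24 to -1.09, with none higher and 1 lower, and Hoxc had only Hoxc6 of 7 members. Ordered by paralogue number, the log2 difference was lower at every step in Hoxa and in Hoxd (Spearman's rho -1 over 5 genes each), and in Hoxb rho was -0.829 over 6 genes. The order was not the same under every setting. In Hoxd, Hoxd3 (-0.15) and Hoxd8 (-0.17) were nearly level, and after quantile normalization they changed places, at -0.28 and -0.22 (rho -0.9). In Hoxa, rho was -0.6 with a pseudocount of 64 and -0.7 with the dimmest probe sets, where Hoxa5 was at -0.06, Hoxa7 at -0.22 and Hoxa9 at -0.02. In Hoxb, rho was -0.446 with every probe set as its own unit. Over all measured members, dim ones included, rho was -0.75 in Hoxa (9 genes), -0.667 in Hoxb (9 genes), -0.786 in Hoxc (7 genes) and -0.262 in Hoxd (8 genes).

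**Figure D3:**
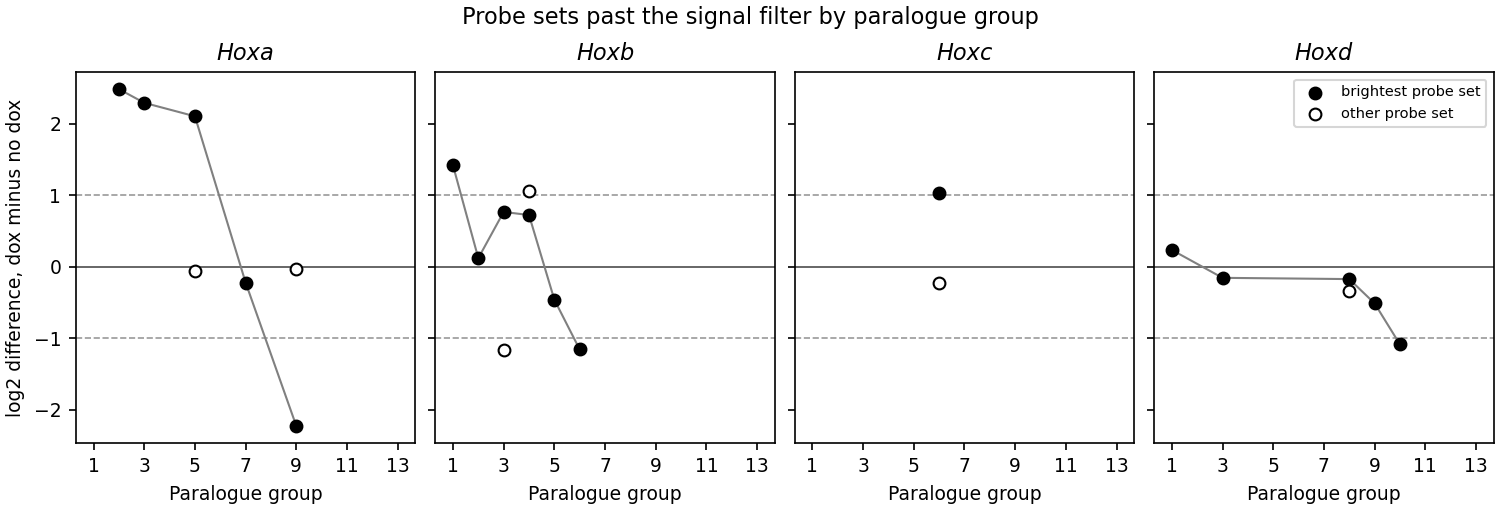
Log2 difference (dox minus no dox) against paralogue group in each cluster for the 23 Hox probe sets past the signal filter; filled points joined by a line are the brightest probe set of each gene, open points are its other probe sets, and dashed lines mark 2-fold. The line descends at each step in Hoxa and Hoxd, by little between Hoxd3 (-0.15) and Hoxd8 (-0.17), while open points of Hoxa5, Hoxa9, Hoxb3 and Hoxc6 lie far from their filled points.

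Where a Hox gene had 2 probe sets past the filter, these often disagreed. Their pooled SD of log2 differences was 1.12 over 12 probe sets of 6 Hox genes, against 0.38 over 13823 probe sets of 5173 genes. Of the 6 genes, Hoxa9, Hoxb4 and Hoxd8 had both probe sets on the same side of 0, and Hoxa5, Hoxb3 and Hoxc6 had them on opposite sides. The probe sets of Hoxa9 shared a sign but were far apart, at -2.23 and -0.02. The relation to paralogue number kept its sign under other choices of probe set. With the dimmest probe set past the filter for each gene, a choice added after seeing the data, rho was -0.611, and with every probe set as its own unit it was -0.595.

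Set against genes of like signal, 3 members lay outside the central range, all of them lower with dox. All genes past the filter were sorted by mean signal into 20 bins, and the central 95% of log2 differences in each bin served as a description. Hoxa9 at -2.23 lay below its bin's range of -1.02 to 1.56, Hoxb6 at -1.16 below a range of -0.95 to 1.80, and Hoxd10 at -1.09 below a range of -1.02 to 1.61. Hoxb6 and Hoxd10 lay outside by less than the probe set SD of 0.38, and the other Hoxa9 probe set was at -0.02. None of the 17 lay above its range. Hoxa2 at 2.48, Hoxa3 at 2.29 and Hoxa5 at 2.10 came close to upper limits of 2.52, 2.33 and 2.23.

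**Figure D4:**
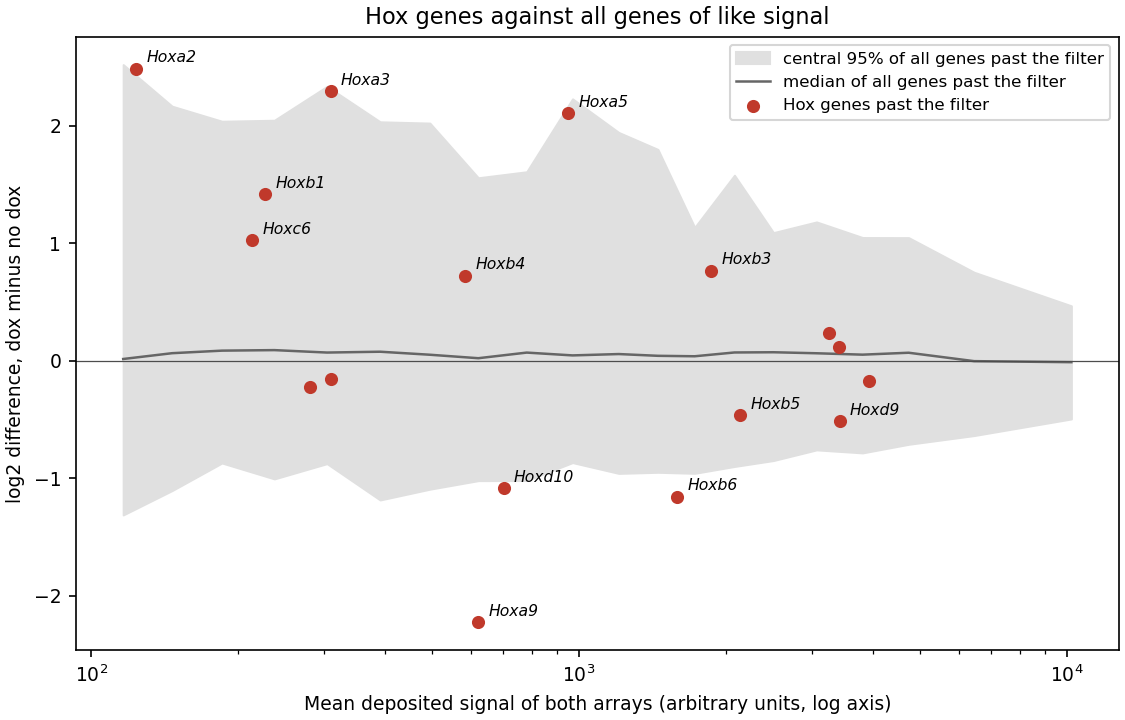
Log2 difference (dox minus no dox) against mean signal of both arrays (log axis) for the 17 Hox genes past the filter (red), over the central 95% (grey band) and the median (line) of all genes past the filter in 20 signal bins. Hoxa9, Hoxb6 and Hoxd10 lie below the band, and Hoxa2, Hoxa3 and Hoxa5 lie near its upper edge.

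Partners of Hox proteins on DNA were partly higher. Of 7 TALE genes past the filter 3 exceeded 2-fold, all upwards, against 5.69% of all genes. Among these, Pknox2 reached the median on the dox array alone, so it had to differ to be counted. Meis2 had a signal of 10139 with dox and 1549 without dox, and log2 differences ran from 2.70 to 3.23 over 4 probe sets. Meis1 had a signal of 2543 with dox and 515 without dox (log2 difference 2.27), with other probe sets at 2.05 and -0.22, and Pknox2 had 678 with dox and 98.8 without dox (2.60), with another at 0.09. The Pbx genes measured stayed within 2-fold, such as Pbx3 at 0.12. Cdx2, the caudal factor past the filter, had a signal of 77.9 with dox and 708 without dox (log2 difference -2.95). It passed through the no dox array alone. Another Cdx2 probe set was dim on both arrays, at 28.4 with dox and 9.86 without dox. Cdx1 was at the floor on both arrays and Cdx4 was at 4.76 with dox and 5.46 without dox.

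Genes of retinoic acid metabolism and response differed in both directions, with 4 of 10 past the filter 2-fold or more higher and 1 lower, against 5.69% and 2.06% of all genes. Cyp26b1, an enzyme that breaks down retinoic acid, had a signal of 3795 with dox and 283 without dox (log2 difference 3.67). Rarb, a receptor that retinoic acid itself induces, had 486 with dox and 69.2 without dox (2.56), and Dhrs3, which turns retinal back to retinol, had 1295 with dox and 438 without dox (1.53). Rarb reached the median on the dox array alone, so it had to differ to be counted. Named after their values were seen, Crabp1, which binds retinoic acid in the cytosol, was the other higher gene (1.53), and Cyp26a1, a breakdown enzyme of the tail end of the embryo, was the lower one, with 1308 with dox and 3145 without dox. Aldh1a2, the main synthesis enzyme of the early embryo, was at the floor on both arrays. The list median of 0.15 was near the 0.05 of all genes.

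Signals of the growing trunk and tail included 5 genes past the filter, of which 2 lay beyond 2-fold, both downwards, against 2.06% of all genes. Both reached the median on the no dox array alone, where they were high, so they had to differ to be counted. Fgf3 had a signal of 44.9 with dox and 571 without dox (log2 difference -3.27). Its other probe sets were at -2.66 and -0.86, the latter within 2-fold. Nkx1-2, a homeobox gene of the caudal epiblast, had 74.9 with dox and 185 without dox (-1.14). The list median was 0.16. Wnt5a was at 519 with dox and 269 without dox (0.91). Genes of the chromatin complexes that keep Hox genes silent or active differed less than 2-fold when judged on the brightest probe set. Among 17 Polycomb genes past the filter the median was 0.07, with Phc3 at 0.99, Ezh2 at -0.63 and Phc1 at -0.41. Other probe sets of Rbbp4, a histone-binding subunit whose brightest was at -0.03, ran from -1.27 to 0.92. Among 13 trithorax and demethylase genes the median was -0.09, with Kmt2a at 0.58 and Psip1 at -0.57. Kmt2d was at -0.77 by its brightest probe set and at 0.68 by another of similar signal, so no direction is given for it. Another probe set of Wdr5, at 265 with dox and 606 without dox, was at -1.15, against -0.09 by the brightest.

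Genes beside the clusters were listed to set the Hox values against their chromosomal surroundings. Within 1 Mb of the clusters, 2 of 35 listed neighbours past the filter lay beyond 2-fold, both downwards. That is 5.71%, near the 7.75% of all genes beyond 2-fold in either direction. Beside Hoxa, the homeobox gene Evx1 had a signal of 67.8 with dox and 166 without dox (log2 difference -1.12), while Snx10 was at -0.59 and Tax1bp1 at 0.39. Evx1 passed through the no dox array alone. Beside Hoxc, Nfe2, a factor of megakaryocytes, had 154 with dox and 360 without dox (-1.15), while Cbx5 was at -0.60 and Zfp385a at -0.36. Neighbours of Hoxb lay between -0.82 (Snx11) and 0.70 (Copz2), with Skap1 at -0.37, and those of Hoxd between -0.51 (Chn1) and 0.24, with Nfe2l2 at -0.38 and Mtx2 at -0.24. The 3 noncoding transcripts named inside the clusters also stayed within 2-fold. Hoxa11os was at -0.23, Hoxd3os1 at -0.22 and Hoxb5os at -0.04.

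**Figure D5:**
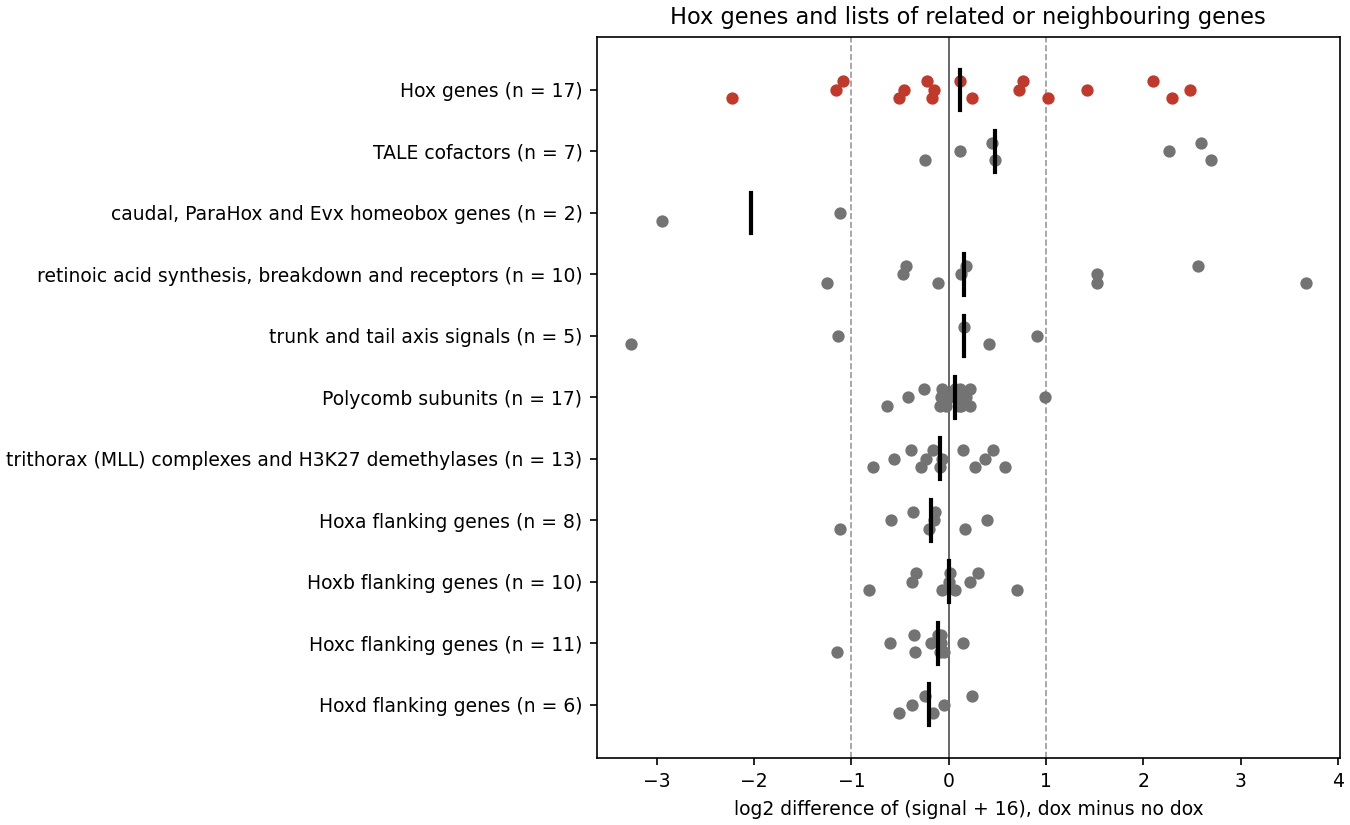
Log2 difference (dox minus no dox) of each gene past the signal filter for the Hox genes (red) and for lists of cofactors, regulators and cluster neighbours (grey); thick bars are list medians and dashed lines mark 2-fold. The Hox genes spread from -2.23 to 2.48, whereas Polycomb genes, trithorax genes and most neighbours lie within 2-fold by their brightest probe sets.

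Markers of other cell types differed between the same 2 samples, and their counts stand against 5.69% of all genes higher and 2.06% lower. Of 15 smooth muscle and mesenchyme markers past the filter 9 were higher and 2 lower by at least 2-fold, and the signals of all 16 summed to 43767 with dox and 9758 without dox, with Cnn1 at the floor without dox. Lateral plate and paraxial mesoderm markers were higher by that much in 4 of 9 and lower in 1, with sums of 17733 with dox and 8271 without dox over 16 genes. Cardiomyocyte markers were higher in 7 of 11, with sums of 9691 with dox and 3411 without dox over 16 genes and Nebl at the floor without dox. Erythroid markers were lower in 4 of 11, with sums of 15320 with dox and 26271 without dox over 13 genes. Some of the markers counted so far reached the median on 1 array alone, where they were high, so they had to differ to be counted. Through the dox array alone came Tagln, Cnn1, Col1a1, Lum, Wt1, Tcf21, Myh7, Myl4, Myl7 and Nebl. Through the no dox array alone came Hba-x and Gfi1b. Of 22 endothelial markers 5 were higher and 2 lower, with sums of 95039 with dox and 94599 without dox. They include Kdr and Tek, on whose products the cells were sorted, and they ranged from -1.40 (Cldn5) to 3.96 (Clec14a). Another probe set of Erg, not its brightest, was at -1.81. Col1a2 (1.06), Dcn (2.20) and Foxc1 (-1.55) also had another probe set beyond 2-fold, though their brightest lay within it. Mylk, counted as lower, had others at 0.74 and -0.33, and Tcf21, counted as higher, had another at -0.53. All these sums are led by the brightest probe sets, since brightness is not comparable between genes. None of 4 neural markers past the filter reached 2-fold by the brightest probe set, though another probe set of Nes was at -1.62. Sox1, below the filter, was at the floor with dox by its brightest probe set and at the floor without dox by the other. The part of these cell types in the Hox differences was not tested.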

How the data were processed

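Sorted cells were profiled on Affymetrix 3' arrays from 100 ng of total RNA, per the labels' protocols. The authors deposited 1 linear signal intensity per probe set for 45037 probe sets on 2 arrays; how it was summarised and scaled is not stated in the labels used. Of these probe sets 34945 carried 1 symbol in the platform annotation (named), 932 several and 9160 none. All 33 Hox genes matched the RefSeq gene table by Entrez number. Signals were analysed as log2(signal + 16), dox minus no dox, with the brightest probe set per gene. The filter kept 11794 of 18193 genes. With 1 array per condition no test was possible, and 2-fold (log2 difference of 1) was the fixed size. The genes described were every Hox gene and up to 3 genes with the largest absolute difference past the filter in each list other than those of cell types. Besides these came Cdx1, Cdx2, Cdx4, Meis1, Mesp1, Kdr and Tek. The cell type lists were given mainly as counts and sums. Members, lists (18, with 258 entries) and rules were chosen with earlier results of these data known, and neighbours were kept by position within 1 Mb. Alternatives covered pseudocount, scaling, filter and choice of probe set. The procedure was tested on simulated data in which all probe sets of a changed gene shifted alike. That test cannot tell how it performs where probe sets disagree, as they do for several Hox genes. Python 3.11.15, pandas 2.3.3 and scipy 1.17.1 were used.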

Additional observations from a re-analysis of the deposited data

How the results depend on the processing

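The number of Hox genes 2-fold or more higher, 5, was 3 with a filter on both arrays and 1 with a filter at the 75th percentile, and lay between 4 and 6 otherwise; the number lower, 3, lay between 2 and 4. The median of paralogue groups 9 to 13 (-1.09) was -0.36 without a filter and -0.51 with the dimmest probe set, and the medians of groups 1 to 4 and 5 to 8 moved by less than the pooled probe set SD of 0.38 over all genes, which is 1.12 over Hox genes. The Hox median of 0.12 was -0.33 after median scaling, -0.22 after quantile normalization, -0.15 without a filter, with a filter on both arrays, with the mean of probe sets or with the dimmest, -0.17 with a filter at the 75th percentile and -0.06 with every probe set as a unit. The median of all genes, 0.05, was itself -0.13 after median scaling and -0.03 after quantile normalization. Members higher by any amount numbered 4 to 9 in groups 1 to 4, 0 to 3 in groups 5 to 8 and 0 to 3 in groups 9 to 13. The Hoxa median of 2.10, taken over genes of both directions, was 1.66 with a pseudocount of 64, 1.02 with the mean of probe sets and 0.94 without probe sets that can detect related sequences. It turned to -0.19 without a filter, -0.22 with a filter on both arrays, -0.060 with a filter at the 75th percentile, and -0.025 with every probe set as a unit or with the dimmest one. The Hoxb median of 0.42 was -0.043 without a filter, -0.038 with the mean of probe sets and -0.17 with the dimmest. The Hoxc median, 1 gene at 1.03, was 0.65 without a filter, 0.40 with the mean of probe sets or every probe set, and turned to -0.40 after median scaling, -0.39 after quantile normalization and -0.23 with the dimmest probe set. Spearman's rho lay between -0.758 and -0.541 over 12 settings. Among single genes Hoxa5 turned to -0.059 with the dimmest probe set and Hoxc6 to -0.40, -0.39 and -0.23 as above, since it is the cluster's only member past the filter. Hoxb3 (0.77) was -0.20 with the mean of probe sets and -1.16 with the dimmest, Hoxb2 (0.12) was -0.06 after median scaling, and Hoxa9 (-2.23) was -1.12 with the mean and -0.02 with the dimmest, where it was no longer beyond 2-fold. The upstream bases alone held TTTAC in 5 Hox promoters in place of 8. The dimmest probe set was added after seeing the data. No paired analysis was possible because each condition has 1 array. Leaving out a replicate was not possible for the same reason. Signal over background limits the 16 members below the filter, and the table holds no detection calls.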
